A study of Mus musculus with 32 samples.

Results

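The genes described here are 6 carbonic anhydrase genes of mouse liver, Car1, Car2, Car3, Car5a, Car8 and Car14, out of 20076 genes in the count table. They were taken by name from the family around Car3, which was chosen by its log2 fold change from fed to fasted livers in these same mice, one of the lowest of all genes. The fasting contrast therefore chose the set, and fasting values of the 6 genes are given below as a description without a test. All 6 passed the filter on low counts that left 11566 genes for testing. Of 10 further carbonic anhydrase genes looked for, 9 were in the table.

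Samples labelled as liver came from 32 male C57BL/6J mice, 4 in each of 8 groups formed by genotype, diet and feeding state. The MCAD-KO (KO) mice carried an Acadm knockout in every cell of the body, and their controls were wild type (WT). Both were kept on a low-fat (LF) or a high-fat (HF) diet for 6 weeks and were then killed fed or after 16 hours without food. Age entries ran from 7.5 to 16 with no unit given. One library was made per mouse from total RNA of crushed liver with a kit that reads the 3′ end of each mRNA. Levels are compared here between mice for a gene and not between genes.

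The library labelled KO HF fasted replicate 4 held 42492 CPM (counts scaled to library size) over 12 heart markers and 812 CPM over 10 hepatocyte markers. The library labelled WT LF fed replicate 2 held 338 CPM over 7 bile duct and gallbladder markers, against 50.4 to 96.8 CPM in the 30 mice used. These libraries were left out of every comparison, which leaves 3 WT LF fed mice, 3 KO HF fasted mice and 4 mice in each of the 6 other groups. In the 30 mice used, hepatocyte markers summed to 40381 to 63450 CPM, and the libraries held 2031053 to 4292200 counts. Acadm, the knocked-out gene, gave 26 to 94 counts in KO livers (n = 15) and 566 to 2752 in WT livers (n = 15), without overlap.

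Carbonic anhydrases interconvert carbon dioxide and bicarbonate. In liver, bicarbonate made in mitochondria feeds carbamoyl phosphate synthetase of the urea cycle and pyruvate carboxylase of gluconeogenesis, and cytosolic bicarbonate feeds the acetyl-CoA carboxylases of fatty acid synthesis. Car3 encodes a cytosolic isoform of low catalytic activity that is abundant in skeletal muscle, adipose tissue and rodent liver. Car1 and Car2 encode cytosolic isoforms that are abundant in red blood cells, Car5a the mitochondrial isoform of liver, and Car14 a membrane isoform whose catalytic domain faces outwards. Car8 encodes a carbonic anhydrase-related protein without enzymatic activity, which is known to bind the type 1 inositol trisphosphate receptor.

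Histidines hold the catalytic zinc ion in this family, and the coding stretch around 2 of them that lie close together shows where Car8 differs. A further zinc-binding histidine lies outside the stretch. Each stretch was read from the GENCODE M21 transcript of the gene on GRCm38, on the coding strand, and capitals mark the codons at these 2 positions.
Car3: caattcCATcttCACtggggc
Car1: cagttcCATtttCACtggggc
Car2: cagtttCACtttCACtggggc
Car5a: cagtttCATttcCACtgggga
Car14: cagctcCACctgCACtggggt
Car8: gaagttAGAtttCACtgggga
In the 5 other genes both capitalised codons encode histidine, while the first one in Car8 (AGA) encodes arginine. The stretches lie at chr3:14866844-14866864 in Car3 and chr3:14895063-14895083 in Car2 on the plus strand. On the minus strand they lie at chr3:14776275-14776295 in Car1, chr8:121927140-121927160 in Car5a, chr3:95900303-95900323 in Car14 and chr4:8221607-8221627 in Car8. Each stretch is within 1 coding exon.

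Car1, Car3 and Car2 are neighbours on chromosome 3 of GRCm38, with Car13 beside them. Car1 (ENSMUSG00000027556) spans 14766216 to 14808368 on the minus strand, Car3 (ENSMUSG00000027559) 14863512 to 14872523 on the plus strand and Car2 (ENSMUSG00000027562) 14886273 to 14900770 on the plus strand. A gap of 13749 bases separates Car3 from Car2 and one of 55143 bases separates Car1 from Car3. Car14 (ENSMUSG00000038526) lies elsewhere on chromosome 3, from 95897768 to 95904691, and shares 445 exonic bases at its 3′ end with Aph1a on the opposite strand. Car5a (ENSMUSG00000025317) lies on chromosome 8 from 121916126 to 121944904 and shares 314 exonic bases with the opposite-strand transcript BC048644. Car8 (ENSMUSG00000041261) lies on chromosome 4 from 8143362 to 8239041. The strand setting of the read counting is not given in the sources used here. It is therefore not known how reads were assigned or lost where Car14 overlaps Aph1a and Car5a overlaps BC048644. Aph1a is in the count table and BC048644 is not.

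Car3 stood far lower in fasted than in fed livers on the LF diet and only moderately lower on the HF diet. Its mean in fasted livers was 8.16% of that in fed livers in LF WT mice and 6.57% in LF KO mice, but 59.1% and 42.4% in HF WT and HF KO mice. Single mice moved some of these shares by over 1.5 times, to 5.15% in LF WT without fasted replicate 4, 3.78% in LF KO without fasted replicate 3 and 27.5% in HF KO mice without fasted replicate 1. Car5a and Car8 also had lower means in fasted livers in all 4 genotype and diet combinations, by smaller factors. On the HF diet Car3 and Car5a were higher than on the LF diet, and the effect of fasting on Car3 and Car8 differed between the diets. No carbonic anhydrase gene passed the test of KO against WT mice. In these bulk livers fewer cells of a type and less RNA per cell cannot be told apart.

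In LF fed mice Car3 was at 2357, 2189 and 2131 CPM in the 3 WT livers and at 2045, 2173, 2258 and 2366 CPM in the 4 KO livers. In LF fasted mice it was at 45.8, 28.5, 269.5 and 382 CPM in WT and at 76.3, 136, 330.2 and 37.9 CPM in KO livers. All 8 LF fasted livers were below all 7 LF fed livers, and the values of WT and KO livers overlapped in both feeding states. The fed livers kept within a factor of 1.16 of each other, whereas the fasted livers spread over a factor of 13.4. The SD of log2 CPM was 0.08 and 0.09 in LF fed WT and KO mice and 1.84 and 1.31 in LF fasted WT and KO mice.

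In HF fed mice Car3 was at 2314, 2265, 2547 and 3272 CPM in WT and at 2622, 2901, 3054 and 3637 CPM in KO livers. In HF fasted mice it was at 1888, 2324, 709 and 1220.2 CPM in WT and at 2201, 941 and 738 CPM in the 3 KO livers. The HF fasted livers therefore overlapped the HF fed ones at 1 mouse, WT replicate 2, while every HF fasted liver was above every LF fasted liver. Group means were 182 ± 173 (SD, n = 4) in LF fasted WT, 145 ± 129.8 (SD, n = 4) in LF fasted KO, 1535 ± 714 (SD, n = 4) in HF fasted WT and 1293 ± 793 CPM (SD, n = 3) in HF fasted KO mice.

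**Figure D1:**
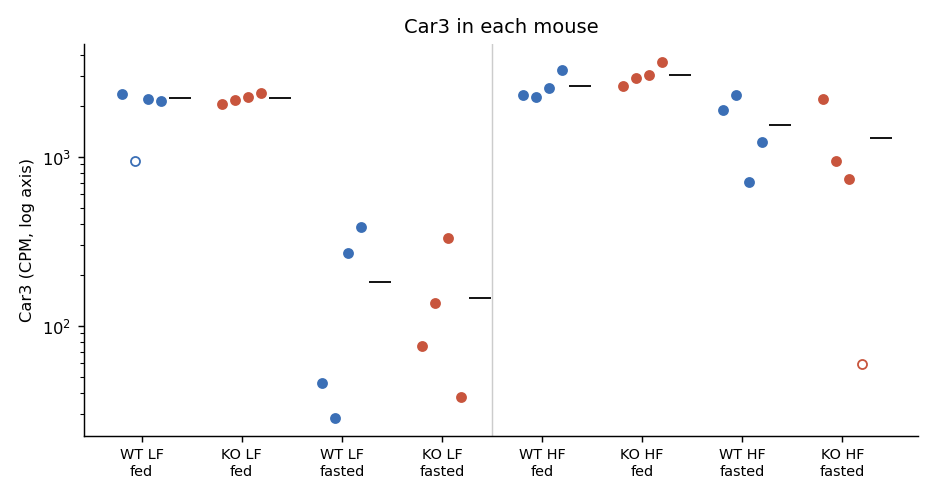
Car3 in CPM on a log axis in each mouse, by genotype, diet and feeding state (blue WT, red KO, open circles the libraries left out, horizontal bars the means of the filled points). The 8 LF fasted livers sit between 28.5 and 382 CPM and the 7 HF fasted livers between 709 and 2324 CPM.

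As a description of the contrast that chose the gene, the log2 fold change of Car3 from fed to fasted was -3.61 ± 0.69 (SE) in LF WT and -3.93 ± 0.69 in LF KO mice. On the HF diet it was -0.76 ± 0.61 in WT and -1.24 ± 0.68 in KO mice. With 1 mouse left out the LF values ran from -4.28 to -3.26 in WT and from -4.71 to -3.62 in KO mice, and the HF values from -1.03 to -0.52 in WT and from -1.86 to -0.96 in KO mice. Within lanes 7 and 8 of the sequencer the HF values were -0.17 and -1.76 in WT and -0.82 and -2.18 in KO mice, where lane 8 held 1 fed WT and 1 fasted KO mouse. Averaged over the 4 combinations it was -2.39 ± 0.33, the 42nd lowest of 11566 genes. Averages were -0.53 ± 0.12 for Car5a, -0.57 ± 0.10 for Car8, -0.47 ± 0.30 for Car1, -0.35 ± 0.25 for Car14 and 0.23 ± 0.24 for Car2. The median over the 6 genes was -0.50, beside -0.002 over all genes tested. After Benjamini-Hochberg adjustment of edgeR's quasi-likelihood p-values, 3 of the 6 (Car3, Car5a and Car8) lay past an adjusted p of 0.05, as did 18.9% of all genes tested (9.77% higher and 9.14% lower in fasted livers). Nothing is read from that count, because the contrast chose the genes.

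**Figure D2:**
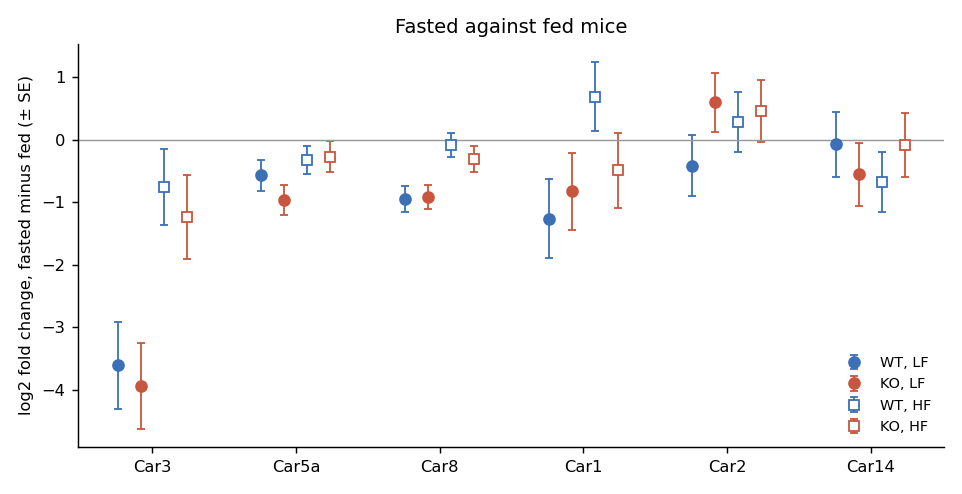
Log2 fold change from fed to fasted with its SE for each gene in WT (blue) and KO (red) mice, as filled circles on the LF and open squares on the HF diet. For Car3 the LF values of -3.61 and -3.93 lie below the HF values of -0.76 and -1.24, while Car2 scatters on both sides of 0.

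Whether fasting acted differently on the diets was tested by the difference of the fasting effects, HF minus LF, averaged over the genotypes. For Car3 this difference was 2.77 ± 0.64 (SE) on the log2 scale (95% interval 1.45 to 4.09, adjusted p = 0.020 by edgeR). For Car8 it was 0.73 ± 0.20 (0.33 to 1.14, adjusted p = 0.036). Thus 2 of 6 genes passed, both with a smaller loss in HF mice, against 2.46% of all genes tested, of which 1.26% in that direction. This test draws on the fed and fasted values by which Car3 was chosen. From fed to fasted, Car3 was the 39th and 20th lowest gene in LF WT and LF KO mice. In HF WT and HF KO mice it was the 473rd and 237th lowest. The count is therefore given as a description, and nothing is read from it. The differences of Car1 (1.14 ± 0.60, adjusted p = 0.41), Car5a (0.47 ± 0.24, 0.39), Car2 (0.28 ± 0.48, 0.89) and Car14 (-0.06 ± 0.50, 0.99) did not pass. The 95% intervals were -0.07 to 2.35 for Car1 and -0.01 to 0.95 for Car5a. For Car2 and Car14 they were -0.70 to 1.26 and -1.11 to 0.98. All of these intervals leave room for differences of the size seen in Car8.

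The Car3 difference passed in 29 of 30 fits that left out 1 mouse, and without KO HF fasted replicate 1 it was 2.46 with an adjusted p of 0.054. The Car8 difference passed in only 18 of these 30 fits, and its adjusted p reached 0.10 without that same mouse. Among lane 8 libraries alone the difference was 2.38 for Car3 and 0.24 (adjusted p = 0.78) for Car8.

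Skeletal muscle markers were high in a few single livers, while the medians of their sum were 0.96 CPM in LF and 2.40 CPM in HF mice. The 8 muscle markers summed to over 100 CPM in 3 mice, all on the HF diet: 1306 CPM in KO fed replicate 1, 725 CPM in WT fed replicate 4 and 302 CPM in WT fasted replicate 4, beside at most 23.7 CPM in the LF mice. Car3, which muscle expresses, was at 2622, 3272 and 1220.2 CPM in these mice, and only the second of them was the highest of its group. Without the 3 mice the Car3 difference of the fasting effect was 2.85 with an adjusted p of 0.054, and that of Car8 was 0.77 with an adjusted p of 0.057. The diet effect of Car3 without them was 1.74 (adjusted p = 0.011).

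Bile duct and gallbladder markers moved with fasting and diet in the 30 mice. All 7 were in the table, and their sum had medians of 91.9 CPM in WT and 74.0 CPM in KO mice in LF fed livers (range 64.5 to 96.8 over both) and of 57.7 and 52.9 CPM in LF fasted livers (50.4 to 62.5), without overlap. On the HF diet the medians were 63.3 and 63.5 CPM in fed livers (57.4 to 73.1) and 76.3 and 72.0 CPM in fasted livers (59.0 to 96.8), which overlapped. The sum was thus lower in fasted livers on the LF diet alone, the diet on which Car3 and Car8 were lowest when fasted. Its Pearson r over the 30 mice was 0.63 with Car8 and 0.52 with Car3, and 0.41 and 0.01 with group means subtracted, given as a description. The part of these markers in the differences of Car3 and Car8 was not tested.

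On the HF diet Car3 and Car5a rose relative to the LF diet when genotypes and feeding states were averaged. The log2 fold change was 1.73 ± 0.33 (SE, adjusted p = 0.0031) for Car3 and 0.70 ± 0.12 (adjusted p = 0.00028) for Car5a. These 2 of 6 compare with 3.49% of all genes tested (2.26% higher and 1.24% lower on the HF diet). The median over the 6 genes was 0.49, beside 0.007 over all genes. Car1 (0.83 ± 0.30, adjusted p = 0.13), Car8 (0.27 ± 0.10, 0.13), Car14 (0.29 ± 0.25, 0.68) and Car2 (-0.26 ± 0.24, 0.69) did not pass. Both calls were kept in all 30 fits that left out 1 mouse.

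Split by feeding state, the diet effect of Car3 was large in fasted mice, 3.07 ± 0.66 (SE, adjusted p = 0.017) in WT and 3.16 ± 0.69 (adjusted p = 0.019) in KO mice. In fed mice it was 0.22 ± 0.66 (95% interval -1.13 to 1.58) in WT and 0.47 ± 0.61 (-0.79 to 1.72) in KO mice. The fit used 1 estimate of the spread of a gene for all 8 groups, so these intervals carry the scatter of fasted livers. The SD of log2 CPM was 0.08 to 0.24 in fed and 0.76 to 1.84 in fasted groups. By the same estimate, the SE and adjusted p of Car3 in fasted mice include the smaller scatter of fed livers and may be too small. In KO mice all HF fed livers (2622 to 3637 CPM) lay above all LF fed livers (2045 to 2366 CPM). In WT mice the fed ranges overlapped (2265 to 3272 and 2131 to 2357 CPM). The test of the difference between the fasted and fed diet effects is the one given above, since it is the same quantity. In fasted WT mice 3 of 6 genes passed (Car3, Car5a and Car8) against 1.12% of all genes, and in fasted KO mice 2 of 6 (Car3 and Car5a) against 1.68%. In fed mice none of the 6 passed in WT, where 0.0778% of all genes did, or in KO, where 0.00865% did. The Car3 calls in fasted mice were each lost in 3 of 30 fits that left out 1 mouse, where the adjusted p reached 0.069 in WT (without LF fasted replicate 1) and 0.12 in KO mice (without HF fasted replicate 1). Without the 6 mice that held over 100 CPM of skeletal muscle, acinar pancreas or adrenal cortex markers, the Car3 values were 2.83 (adjusted p = 0.14) in WT and 3.60 (adjusted p = 0.053) in KO mice. At an unadjusted p below 0.05, 604 of 11566 genes passed in fed WT and 840 in fed KO mice. Without any effect, a share of about 0.05 would pass.

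**Figure D3:**
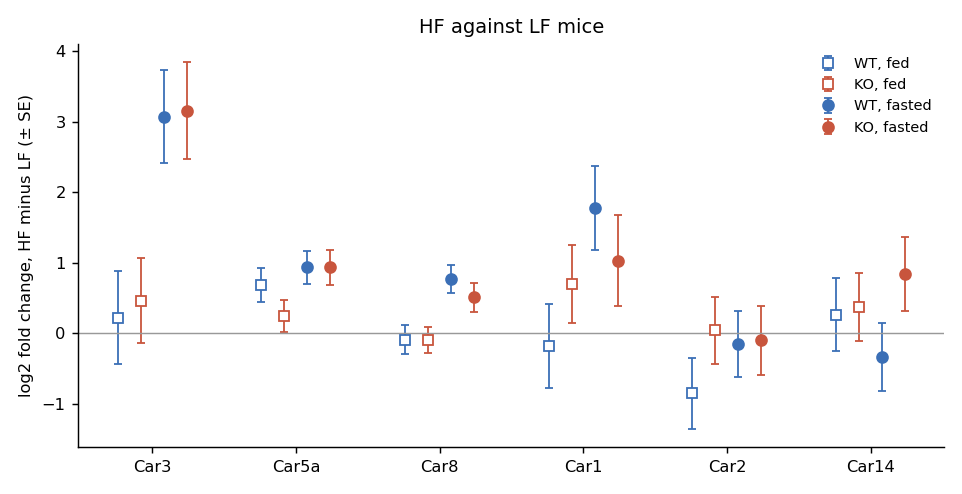
Log2 fold change from LF to HF with its SE for each gene in WT (blue) and KO (red) mice, as open squares in fed and filled circles in fasted mice. Car3 lies at 3.07 and 3.16 in fasted mice and at 0.22 and 0.47 in fed mice.

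The sequencing lane divided some of these groups. All WT LF fed libraries ran on lane 8, so that the diet effect over all groups has no lane 7 value. Within lane 7 the diet effect of Car3 in fasted mice was 5.82 in WT and 3.12 in KO mice, and within lane 8 it was 1.56 and 4.29. In LF fasted WT mice the 2 livers on lane 7 were the ones at 45.8 and 28.5 CPM, and the 2 on lane 8 the ones at 269.5 and 382 CPM. The lane 8 value of KO mice sets 1 HF liver (738 CPM) against 1 LF liver (37.9 CPM) and has no replicates within the lane. With the lane as a term the averaged diet effect was 1.75 (adjusted p = 0.0050).

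Car5a, the mitochondrial enzyme, was at 39.2, 51.6 and 46.8 CPM in LF fed WT and at 46.5, 53.5, 50.1 and 56.6 CPM in LF fed KO livers. In LF fasted mice it was at 30.2, 25.3, 36.7 and 31.4 CPM in WT and at 23.8, 28.3, 39.0 and 15.6 CPM in KO livers. All LF fasted livers were below all LF fed livers, by a margin of 39.0 against 39.2 CPM. In HF fed mice the values were 65.3, 61.5, 76.9 and 90.7 CPM in WT and 60.1, 52.7, 58.0 and 74.7 CPM in KO livers. In HF fasted mice they were 85.9, 66.2, 38.4 and 45.9 CPM in WT and 61.2, 59.2 and 32.8 CPM in KO livers, so fasted and fed livers overlapped on this diet.

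Car5a showed a diet difference whose size in fed WT mice, 0.69 ± 0.24 (SE), was not far from its size in fasted WT mice, 0.94 ± 0.23 (adjusted p = 0.030). In KO mice it was 0.25 ± 0.22 when fed and 0.94 ± 0.25 (adjusted p = 0.041) when fasted, larger when fasted as for Car3. Whether Car5a and Car3 differ in this was not tested. The fed values did not pass (adjusted p = 0.72 in WT and 0.90 in KO), and the test of fed against fasted did not pass either. The calls in fasted mice were lost in 5 of 30 fits that left out 1 mouse for WT and in 4 of 30 for KO mice, where the adjusted p reached 0.19 and 0.23. Leaving out HF fasted replicate 1 of the same genotype gave these highest values. In fasted WT mice the diet effect of Car5a was 1.46 within lane 7 and 0.31 within lane 8, and in fasted KO mice 0.99 and 1.07, the last from 1 mouse of each diet.

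Car8, the related protein without activity, was at 98.5, 115 and 125 CPM in LF fed WT and at 143, 102, 133 and 77.9 CPM in LF fed KO livers. In LF fasted mice it was at 55.1, 38.5, 78.9 and 60.5 CPM in WT and at 52.9, 62.8, 66.5 and 59.4 CPM in KO livers. Fasted and fed LF livers overlapped at 1 mouse on each side, at 78.9 and 77.9 CPM. In HF fed mice it lay between 87.9 and 123 CPM, and in HF fasted mice at 110.7, 125, 85.2 and 76.3 CPM in WT and at 105, 76.9 and 76.6 CPM in KO livers. Its diet effect was 0.77 ± 0.19 (SE, adjusted p = 0.034) in fasted WT and 0.51 ± 0.21 (adjusted p = 0.25) in fasted KO mice, and -0.09 in fed mice of both genotypes. The call in fasted WT mice was lost in 5 of 30 fits that left out 1 mouse, where the adjusted p reached 0.20 without LF fasted replicate 2. That effect was 1.33 within lane 7 and 0.22 within lane 8.

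Car1 and Car2 were measured from few counts. Car1 had 1 to 30 counts per library and 0.37 to 9.25 CPM, with means of 2.18 CPM in the 8 LF fasted mice, 4.39 in the 7 LF fed, 5.42 in the 8 HF fed and 6.11 CPM in the 7 HF fasted mice. Its ranges overlapped between all of these, and its diet effect of 1.78 ± 0.59 (SE) in fasted WT mice did not pass (adjusted p = 0.15). Car2 had 5 to 61 counts and 1.93 to 15.8 CPM, with 3 livers above 15 CPM, which were fasted mice of 3 different groups.

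Red blood cells express Car1 and Car2, so both were set beside the erythroid markers. The erythroid list, of which 9 of 10 markers were in the table, summed to 464 to 1289 CPM. With group means subtracted, its Pearson r over the 30 mice was -0.17 with Car1 and 0.20 with Car2, given as a description. Car2 stood at 15.8 CPM in WT HF fasted replicate 2, whose library held 17261 CPM over 10 acinar pancreas markers, and at 15.7 and 15.3 CPM in KO LF fasted replicate 2 and KO HF fasted replicate 2, which held 11.3 and 9.87 CPM of these markers.

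Car14, the membrane enzyme, varied more between mice of a group than between groups. It ranged from 10.6 to 108 CPM in fasted and from 34.3 to 100.3 CPM in fed livers. Among fasted livers, a single LF WT liver at 99.5 CPM and a single HF KO liver at 108 CPM stood highest. None of its tests of diet or genotype, averaged or within single conditions, or of the 3 differences between effects passed.

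**Figure D4:**
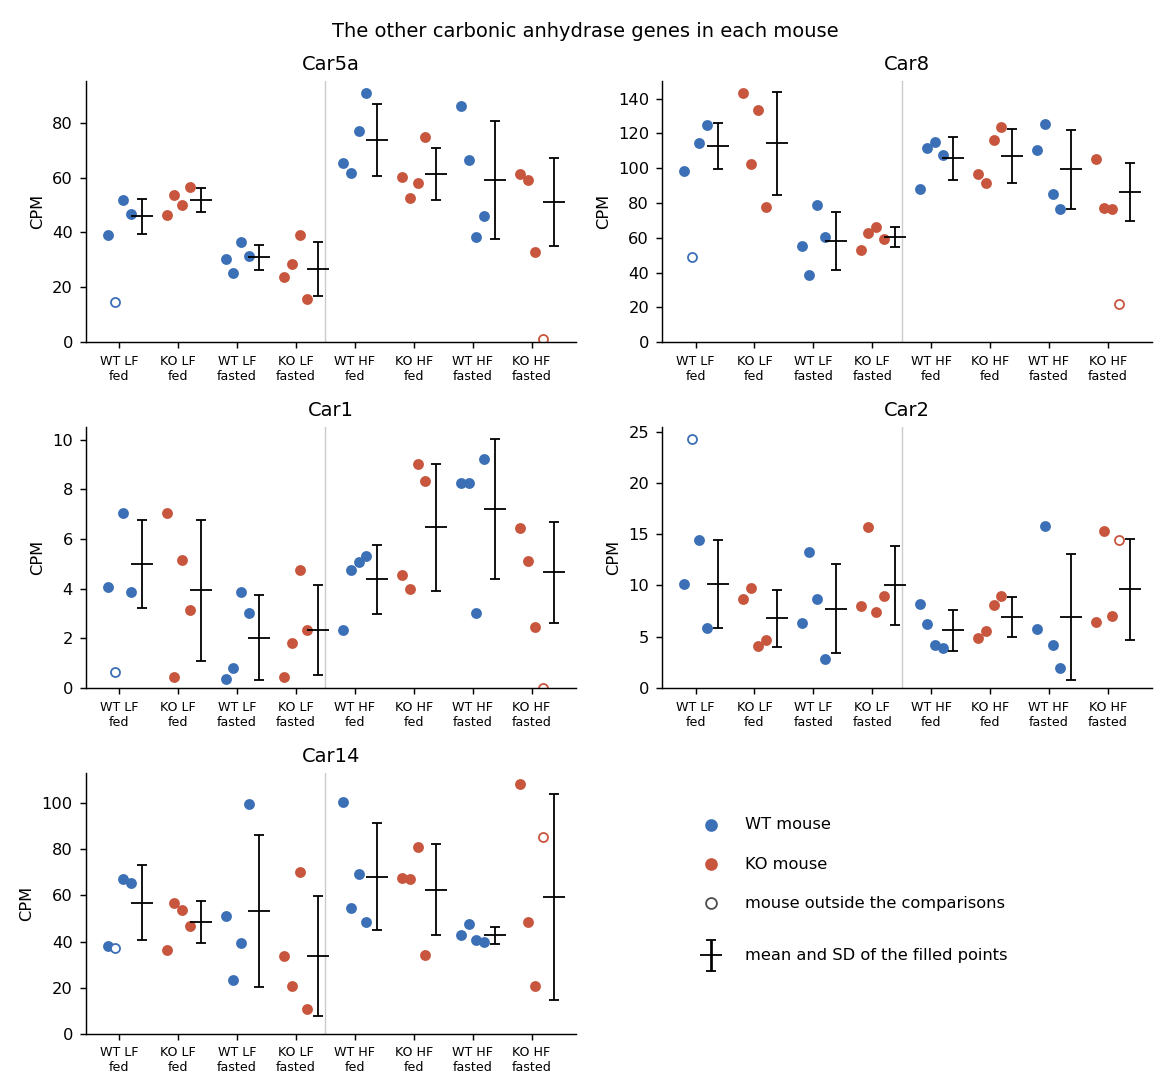
Car5a, Car8, Car1, Car2 and Car14 in CPM in each mouse by genotype, diet and feeding state (blue WT, red KO, open circles the libraries left out, bars the mean and SD of the filled points). Car5a and Car8 are lowest in LF fasted mice, at 15.6 to 39.0 and 38.5 to 78.9 CPM, whereas Car14 spreads widely within several groups.

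KO and WT mice were then compared, the question the study was designed for. None of the 6 carbonic anhydrase genes passed, averaged over diets and feeding states or in any of the 4 separate conditions. In each of these comparisons 0.00865% of all genes passed, which is 1 gene, Acadm. The KO minus WT log2 fold change was -0.09 ± 0.32 (SE, 95% interval -0.75 to 0.57) for Car3, -0.13 ± 0.12 (-0.37 to 0.11) for Car5a and -0.03 ± 0.10 (-0.23 to 0.17) for Car8. It was -0.06 ± 0.30 for Car1, 0.16 ± 0.24 for Car2 and -0.15 ± 0.25 for Car14. For Car3 the spread between mice leaves room for a difference of up to 0.75 on the log2 scale.

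For none of the 6 genes did the difference between genotypes in the fasting effect or in the diet effect pass (0% of all genes passed in either test). At an unadjusted p below 0.05, 573 of 11566 genes passed in the first and 397 in the second test, where a share of about 0.05 would pass without any effect. DESeq2 and limma voom called 0 in both. For Car3 the KO minus WT difference was -0.40 ± 0.63 (SE) in the fasting effect and 0.16 ± 0.63 in the diet effect. Among the 14 mice of lane 8 alone, the KO minus WT log2 fold change of Car3 was -0.85 (adjusted p = 0.0067) and the difference in its fasting effect was -1.79 (adjusted p = 0.0038). Those fits rest on groups with as few as 1 mouse.

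The genes varied together across mice, in part because groups moved together. Over the 30 mice, Pearson's r of log2 CPM with Car3 was 0.88 for Car8, 0.87 for Car5a, 0.67 for Car1, 0.56 for Car14 and -0.22 for Car2. With group means subtracted it was 0.57, 0.68, 0.58, 0.61 and -0.16 in the same order. These are descriptions, since the points share libraries and depth.

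**Figure D5:**
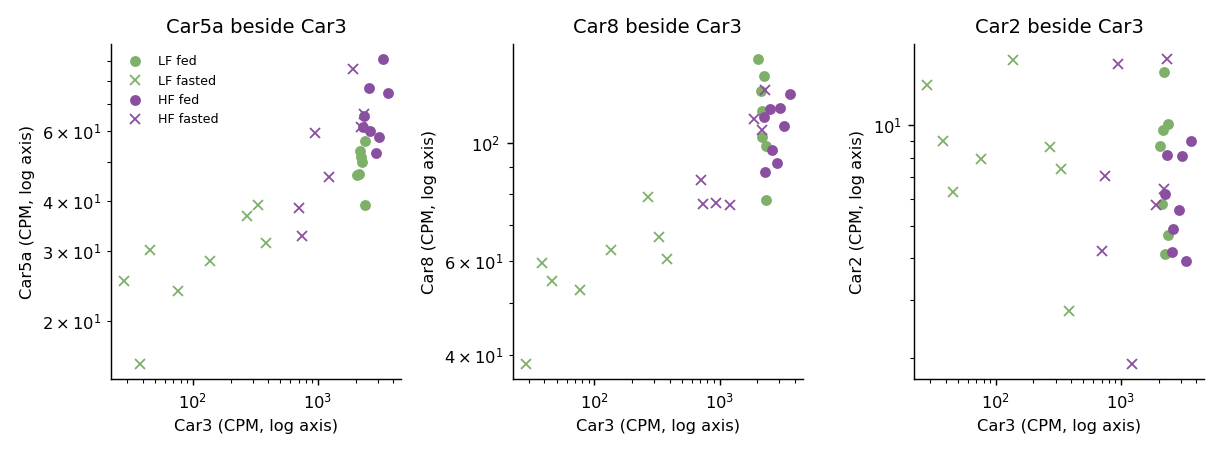
Car5a, Car8 and Car2 against Car3, each in CPM on log axes, in the 30 mice (green LF, purple HF, circles fed, crosses fasted). Car5a and Car8 increase with Car3 (r of 0.87 and 0.88), the LF fasted mice lying lowest, and Car2 shows no such relation (r of -0.22).

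Among all genes tested, those whose log2 CPM followed Car3 most closely over the 30 mice were Akr1c20 (r = 0.96), Akr1c6 (0.96), Rgn, Otc, Hsd3b3, Nit2, Acat3, Inmt (each 0.94), Hsd3b2 and Aox3 (0.93). After group means were subtracted, they were Sord, Inmt (0.86), Hsd3b2 (0.84), Slc22a30, Tmem14a (0.83), Ugt2b34 (0.81), Ghr (0.79), Akr1c20, Col27a1 and Otc (0.78). The lists of 10 shared 4 genes: Akr1c20, Otc, Inmt and Hsd3b2. For the other members, the closest gene after subtraction was Gstm6 for Car5a (0.78), Dclk3 for Car8 (0.83), Hsd3b3 for Car14 (0.86), Ppp5c for Car1 (0.74) and Ankhd1 for Car2 (0.69). Next to these came Gsta3 and Gm6297 for Car5a, Nkapd1 and 4931414P19Rik for Car8, Khk and Nipsnap1 for Car14, Snx30 and Vstm4 for Car1, and Noa1 and Pck2 for Car2.

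The remaining carbonic anhydrases gave few counts in liver. Car5b, the second mitochondrial isoform, passed the filter with 0 to 15 counts per library, and neither fasting (-0.52 ± 0.45 SE, adjusted p = 0.49) nor diet (0.14 ± 0.44, 0.93) called it. Car4, Car6 and Car10 had at most 3, 1 and 1 counts in any of the 30 livers, and Car11, Car12 and Car13 at most 4, 6 and 4. Car7 reached 8 counts and Car9 reached 20, in WT HF fasted replicate 2, the library with acinar pancreas markers. Car15 was not analysed here.

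Enzymes that use bicarbonate changed in both directions. Of 8 such genes, 4 fell and 1 rose with fasting (9.14% and 9.77% of all genes did), with a median of -0.16. The acetyl-CoA carboxylases Acaca and Acacb fell by 1.45 and 1.37 on the log2 scale (adjusted p = 1.31e-06 and 3.07e-05), Pcca of propionyl-CoA carboxylase fell by 0.32 (0.023) and Mccc1 of methylcrotonyl-CoA carboxylase fell by 0.26 (0.049). Pyruvate carboxylase (Pcx) rose by 0.51 (adjusted p = 0.00040). Cps1, carbamoyl phosphate synthetase of the urea cycle, gave 0.14 ± 0.18 (SE) with fasting. On the HF diet 2 of 8 fell, Acacb by 1.19 (adjusted p = 0.0018) and Cps1 by 0.79 (0.013), and none rose, while 1.24% of all genes fell and 2.26% rose.

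Of 9 bicarbonate and proton transporter genes, 6 were tested, and with fasting 2 rose and 1 fell, beside 9.77% and 9.14% of all genes. Slc4a4, a sodium bicarbonate cotransporter, rose by 1.34 ± 0.11 (SE, adjusted p = 4.51e-12), from 71.0 to 245 CPM in LF and from 101 to 187 CPM in HF mice. Slc16a1, the monocarboxylate transporter MCT1, rose by 0.88 ± 0.11 (adjusted p = 6.54e-08) and Slc26a1, a sulfate and anion exchanger, fell by 0.38 ± 0.10 (0.0034). The fasting effect on Slc4a4 was smaller on the HF diet by 0.87 ± 0.21 (adjusted p = 0.019), and Slc4a4 was higher in fasted mice on both diets, where Car3 was lower. Diet called none of the 6, and Slc4a1, Slc4a3 and Slc4a5 had at most 5, 6 and 4 counts. Itpr1, the receptor that Car8 protein binds, gave -0.10 ± 0.10 (SE) with fasting and -0.29 ± 0.10 with diet (adjusted p = 0.11), and none of Itpr1, Itpr2 and Itpr3 was called by either.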

How the data were processed

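Total RNA of 32 samples labelled as liver was made into Lexogen QuantSeq 3′ mRNA libraries and sequenced as 50-base single reads. The authors aligned reads to GRCm38 with HISAT 0.1.5, sorted them with SAMtools 1.2 and counted reads per Ensembl gene with HTSeq 0.6.1p1 in union mode (release 82 in their methods, 76 in the name of the table). The deposited table holds the authors' raw counts, without molecular identifiers. Libraries held 2031053 to 4292200 counts.

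Counts of 30 mice were scaled by TMM and filtered with filterByExpr over the 8 groups, and group means were fitted with edgeR 4.0.16 (robust quasi-likelihood, R 4.3.3), with Benjamini-Hochberg adjustment over 11566 genes and a threshold of 0.05. CPM are TMM-scaled, and log2 CPM for correlations used a prior count of 2. The procedure was tested on simulated counts that gave every gene and group the same dispersion (spread between mice). That test does not cover the unequal spread of Car3 between fed and fasted groups. Each mouse is a separate animal.

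The members, lists and comparisons were chosen with earlier results of these data known. Genes named are the members, the other carbonic anhydrases, bicarbonate-using enzymes, transporters, inositol trisphosphate receptors, Acadm and, by highest r, 10 genes for Car3 (on each scale) and 3 for each other member. Marker lists of erythroid cells, adipose tissue, skeletal muscle, heart, acinar pancreas, bile duct and gallbladder, hepatocytes and adrenal cortex were summed. Alternatives used 32 or 31 mice, RLE factors, no filter, DESeq2 1.42.0, limma voom 3.58.1, lane or age terms, a replicate block, single lanes, only the mice of the 2 groups compared, leaving out each mouse, and Spearman's rho. Fits without mice carrying muscle, pancreas or adrenal markers were chosen after seeing the data.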

Additional observations from a re-analysis of the deposited data

Results flagged for a closer look

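The fasting effect on Car3 and on Car8 differed between the diets by the test of the difference itself, by 2.77 and 0.73 on the log2 scale. In groups of 4 mice, the lowest Car1 values of 2.33 CPM in WT HF fed replicate 1 and 3.03 CPM in WT HF fasted replicate 3 stood apart from the other 3 mice by Dixon's criterion. These are 2 of 36 sets of 4 tested, and chance gives about 1 in 20.

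In the libraries left out, Car4, a membrane-bound isoform of heart and other tissues, had 158 counts in the library labelled KO HF fasted replicate 4 and at most 3 in the livers used. That library also held 59.2 CPM of Car3, 0.96 CPM of Car5a and no Car1 read. Car2 stood at 24.3 CPM in the library labelled WT LF fed replicate 2, above the highest liver used (15.8 CPM), while its Car3 (938 CPM), Car5a (14.5 CPM) and Car8 (49.2 CPM) were below every LF fed liver used.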

How the results depend on the processing

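The diet effect of Car3 (1.69 to 1.94 over the other settings) kept its direction and its call under every alternative run, and the fasting value of Car3 lay between -3.16 and -2.33 over the other settings and between -2.58 and -2.30 when 1 mouse was left out. The number of carbonic anhydrase genes called for diet was 1 instead of 2 with all 32 mice, where Car5a had an adjusted p of 0.23. For the diet difference of the fasting effect the number fell from 2 to 0 with 32 mice and in both fits without mice carrying muscle markers (27 mice) or muscle, pancreas and adrenal markers (24 mice), and to 1 with 31 mice, under the replicate block and on lane 8 alone. For diet in fasted KO mice it was 0 in the fit of 24 mice and 1 instead of 2 with 32 mice, 31 mice, limma voom, the replicate block, lane 7 alone and lane 8 alone. For diet in fasted WT mice it was 0 instead of 3 with 32 and with 24 mice, and 1 with 31 mice and on lane 8 alone. With limma voom it was 2, Car5a having an adjusted p of 0.066. On lane 8 alone 1 gene, Car3, was called for genotype, for genotype in LF fasted mice and for the genotype difference of the fasting effect. Fits with 1 mouse left out gave 0 to 2 genes for the diet difference of the fasting effect, 0 to 2 for diet in fasted KO and 0 to 3 for diet in fasted WT mice. Of the other carbonic anhydrase and bicarbonate genes, 8 were called for fasting, and 3 with 32 mice. By Spearman's rho, 3 of the 10 genes most like Car3 were again among the top 10.

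The fasting value of Car2, given without a test, changed from 0.23 to -0.11 on lane 8. The other values that changed sign were of results that passed no test. For genotype they were Car1 (0.030 with 31 mice, 0.019 with an age term, 0.039 with 27 mice) and Car8 (0.027 with 31 mice). For the diet difference of the fasting effect they were Car1 (-0.16 on lane 8), Car2 (-0.34 on lane 8, -0.20 with 24 mice) and Car14 (0.062 with limma voom, 0.049 with a lane term, 0.10 on lane 8, 0.026 with 24 mice). For the genotype difference of the fasting effect Car14 gave -0.0088 with 31 mice, -0.24 with limma voom, -0.058 with a lane term, -0.037 with the replicate block and -1.88 on lane 8. For the genotype difference of the diet effect they were Car1 (-0.32 with 32 mice, -0.11 with 31, -0.096 with a lane term, -0.12 with an age term), Car3 (-0.15 with 32 mice, -0.051 with an age term), Car5a (0.048 on lane 8) and Car8 (0.21 on lane 8). With 1 mouse left out, genotype values ran from -0.18 to 0.046 for Car1, -0.28 to 0.079 for Car3 and -0.070 to 0.016 for Car8, the diet difference of the fasting effect from -0.090 to 0.48 for Car2 and -0.45 to 0.24 for Car14, its genotype difference from -0.33 to 0.31 for Car14, and the genotype difference of the diet effect from -0.14 to 0.31 for Car1 and -0.17 to 0.55 for Car3. Lane 7 alone, with no WT LF fed mouse, gives no value of the averaged effects. The cause of these changes was not tested.

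Replicate numbers did not pair mice across groups: over 98 same-numbered pairs the median correlation of deviations was 0.006, and 2 pairs exceeded 0.1. Under the replicate block Car8 lost its diet difference of the fasting effect (0.72, adjusted p = 0.058) and Car5a its diet effect in fasted KO mice (0.94, adjusted p = 0.068). Counts of 1 to 30 in Car1 limit what its tests can show.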

Other observations

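Over the 30 livers, adrenal cortex markers summed to over 100 CPM in KO LF fasted replicates 3 and 4 (289 and 124 CPM), and adipose tissue markers to over 100 CPM in 4 mice, at most 194 CPM. Car3, which adipose tissue expresses, had an r of 0.09 with the adipose tissue list and of -0.09 with the skeletal muscle list after group means were subtracted. Car2 had an r of -0.57 with the skeletal muscle list on the same scale. Heart markers reached 334 CPM and passed 100 CPM in 2 mice, both fed and on the HF diet. These were KO fed replicate 1 (334 CPM) and WT fed replicate 4 (181 CPM), the livers with the highest skeletal muscle sums.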
